A study of Mus musculus with 6 samples.

Results

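The clustered protocadherins are cell adhesion proteins of the cadherin superfamily, encoded in mouse by 3 neighbouring gene clusters on chromosome 18. Members were taken by name, as every gene symbol made of Pcdha, Pcdhac, Pcdhb, Pcdhga, Pcdhgb or Pcdhgc and a number. This gave 57 of the 54242 gene symbols in the deposited table. The rule uses no measured value, but earlier results of these data were known when it was chosen. There were 13 members in the alpha cluster, 22 in the beta cluster and 22 in the gamma cluster. In GENCODE M21 (GRCm38) the alpha genes lie at chr18:36930184-37187661, the beta genes at chr18:37264938-37524479 and the gamma genes at chr18:37661793-37841873, all on the forward strand.

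Each alpha and gamma gene has its own large first exon, which encodes the extracellular cadherin repeats and the membrane span, and this exon is spliced to constant exons that all genes of the cluster share and that encode the common cytoplasmic tail. The beta genes lack constant exons. A neuron transcribes a small and largely random set of the alternate alpha, beta and gamma genes, picked by promoters that bind CTCF, and the combination at its surface gives it an identity by which processes of the same cell recognise and avoid each other. The C-type isoforms, at the ends of the alpha and gamma clusters, are not chosen in this random manner and have roles of their own, such as that of Pcdhgc4 in the survival of interneurons and that of Pcdhac2 in the tiling of serotonergic axons. In touch-sensing neurons of these ganglia the gamma genes are known to shape axon branches in the skin and synapses in the spinal cord.

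RNA was measured in dorsal root ganglia, which hold the cell bodies of sensory neurons, at the spinal levels L4-6 of male C57bl/6 mice aged 8 to 10 weeks. The control mice ate ad libitum (called fed here, 3 libraries), and the others had 10 days of intermittent fasting (called fasted, 3 libraries). No label reports a genetic change in either group. The ganglia were dissociated with enzymes and enriched for neurons on a BSA gradient, and the labels do not say whether 1 replicate means 1 animal or pooled animals. P-values here therefore measure the spread among libraries, part of which may be technical.

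The unit throughout is TPM, in which the transcripts of each library sum to a fixed total, here summed over the transcripts of a gene. TPM are corrected for transcript length, so levels can be compared between genes, but they keep no sequencing depth and no counting interval can be given. In bulk tissue, fewer cells of a type and less RNA per cell cannot be told apart.

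Neuron markers were at high levels in all 6 libraries. The summed TPM of 10 neuron markers (such as Tubb3, Uchl1 and Nefl) was 18302 to 20290 (fed) and 19979 to 21172 (fasted), and all 10 were higher on average in fasted libraries, with a median log2 difference of 0.08. Summed macrophage markers (8 genes) were at 68.2 to 82.2 TPM in the fed and 46.2 to 59.6 TPM in the fasted libraries. Summed endothelial markers (8 genes) were at 141.7 to 174.9 against 115.0 to 131.6 TPM, and summed erythrocyte genes (5 genes) at 1284 to 1564 against 1715 to 3277 TPM. Sums of 8 satellite glia, 7 Schwann cell and 6 fibroblast markers overlapped between the diets. Fed replicate 2 stood apart, with 2890 TPM of 8 skeletal muscle genes against 53.0 to 296 TPM in the other 5 libraries. None of the markers was at 0 in any library. The part of these differences in the protocadherin values was not tested, except where a value is given below.

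The ganglia contained RNA of all 3 clusters. The alpha cluster gave 45.5 to 47.4% of the summed TPM of all members in each library, the gamma cluster 37.4 to 39.1% and the beta cluster 14.5 to 15.4%. The limit for testing, a mean TPM of 1 or more, was reached by 52 of the 57 members. Below it lay Pcdha8 (mean 0.33 TPM), Pcdhb2 (0.96 TPM), Pcdhgc5 (0.31 TPM), Pcdhgb8 (0.094 TPM) and Pcdhb1 (0.0085 TPM). Pcdhb1, the first gene of the beta cluster, was listed at 0 in 3 of the 6 libraries. Pcdhgb8 is annotated as a polymorphic pseudogene.

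The 4 most abundant members were C-type isoforms. Pcdhac2, the last gene of the alpha cluster (chr18:37143503-37187657), had the highest level, with 66.6, 59.8 and 65.2 TPM in the fed and 63.1, 64.9 and 66.6 TPM in the fasted libraries. Pcdhgc3 (chr18:37806364-37841873) followed with 37.4, 36.4 and 35.6 TPM in the fed and 35.5, 36.0 and 36.0 TPM in the fasted libraries. Pcdhac1 (chr18:37090013-37187657) was at 28.8, 28.3 and 29.3 against 30.7, 30.4 and 31.4 TPM. The order of these 3 was the same in each of the 6 libraries, with no overlap of their ranges, whereas the diets overlapped for Pcdhac2 and Pcdhgc3. For Pcdhac1 each fasted library lay above each fed one. Pcdhgc4 (chr18:37815079-37841873) came next, with 25.9, 23.8 and 21.8 TPM in the fed and 26.4, 27.6 and 26.6 TPM in the fasted libraries, again without overlap of the diets. The rank of Pcdhgc4 rests on a short transcript made mostly of shared exons, and its full-length transcript had a mean of 3.52 TPM. Pcdhgc5, which lies beside Pcdhgc4, differed from the other C-types in level, at 0.16 to 0.42 TPM in the fed and 0.24 to 0.35 TPM in the fasted libraries.

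The alternate genes were lower than the abundant C-types, and more even. Among the 11 alternate alpha genes the mean TPM ran from 0.33 (Pcdha8) to 10.6 (Pcdha11), with a median of 5.94. The highest value is the sum of a pair of gene identifiers with the symbol Pcdha11, at 4.25 and 6.36 TPM, and by identifier Pcdha12 (10.2 TPM) was the highest. The 12 gamma A genes ran from 2.19 (Pcdhga9) to 7.70 TPM (Pcdhga3), with a median of 4.15. The 7 gamma B genes had a median of 2.23 TPM and the 22 beta genes one of 2.06 TPM. The highest beta gene, Pcdhb9, was at 7.38 to 7.90 TPM in the fed and 7.88 to 8.41 TPM in the fasted libraries. Next in the beta cluster were Pcdhb17 (4.02 to 4.63 against 4.004 to 4.67 TPM) and Pcdhb20 (3.39 to 4.01 against 3.57 to 3.87 TPM). For these 3 beta genes the diets overlapped. Pcdhb9 lay above every other beta gene in each library, while the ranges of Pcdhb17 and Pcdhb20 met. Across genes, which are not independent replicates, Spearman's rho between start and mean TPM was 0.34 for the alternate alpha genes (n = 12 gene identifiers), 0.38 for the beta genes (n = 22) and -0.33 for the gamma A and B genes (n = 19).

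**Figure D1:**
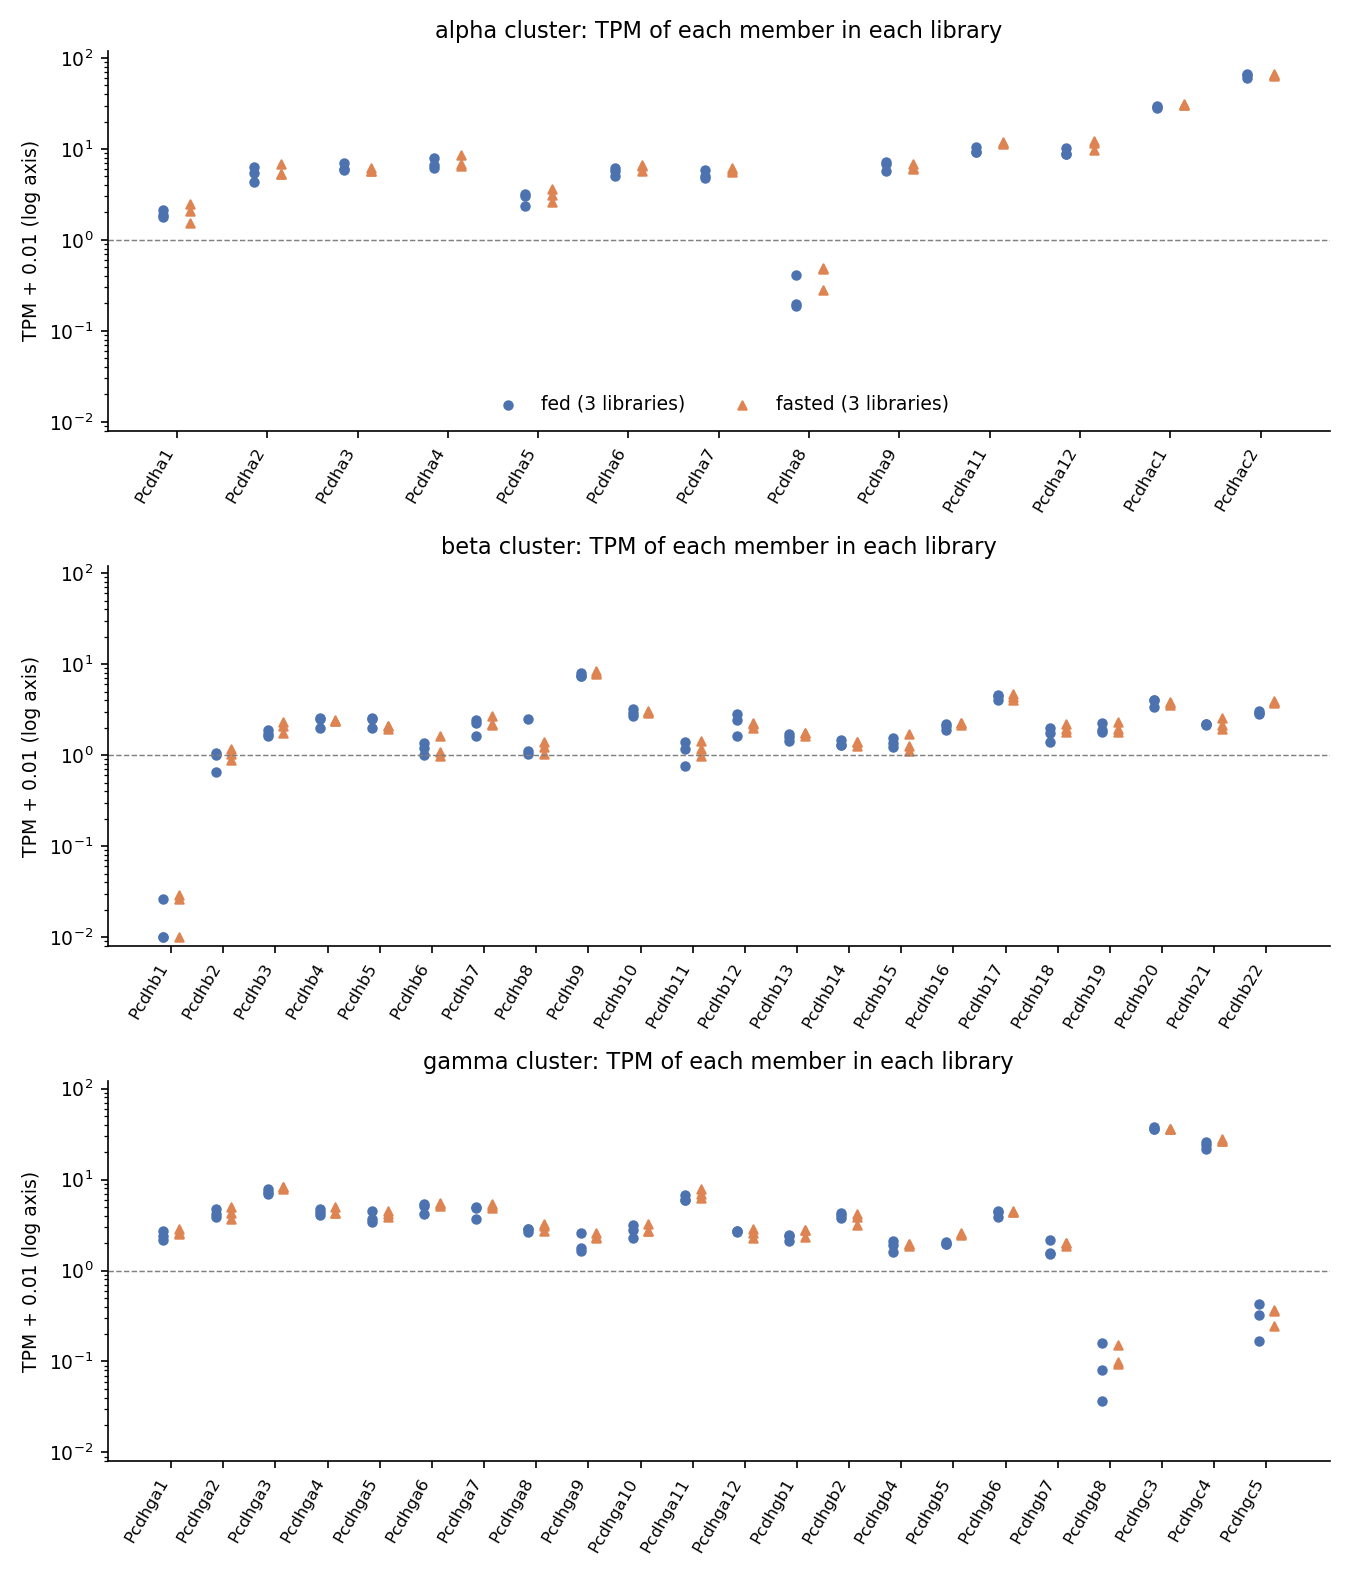
TPM of each of the 57 members in each library, on a log axis with 0.01 added so that values of 0 can be drawn, in 1 panel per cluster with the genes in order of name; circles are fed and triangles fasted libraries, and the dashed line marks 1 TPM. Pcdhac2, Pcdhac1, Pcdhgc3 and Pcdhgc4 stand above all other members, and Pcdhb1, Pcdhgb8, Pcdhgc5 and Pcdha8 are under 0.5 TPM in each library.

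The abundant C-types varied little between libraries of the same diet. Over members at 1 TPM or more, the median coefficient of variation within a diet (the SD pooled over both diets, as a share of the mean) was 10.52% for alternate alpha, 10.2% for beta, 9.99% for gamma A and 9.53% for gamma B genes, against 1.74 to 4.42% for the 2 alpha C-types and 1.80 to 6.01% for Pcdhgc3 and Pcdhgc4. The C-types in this comparison were also the members with the highest levels, and other genes at such levels were not compared. Whether low variation belongs to C-types or to level was therefore not tested. Pcdhgc5, a C-type with a mean of 0.31 TPM, was at 34.0%. The low value of Pcdhgc4 rests mostly on a short transcript made of shared exons, described below. Its full-length transcript alone was at 3.46 ± 0.64 TPM in the fed and 3.58 ± 0.28 TPM in the fasted libraries (SD). That spread is wider relative to the mean. Of the members at 1 TPM or more, Pcdhb8 varied most, at 43.2%. Its transcript of 3334 bases was at 0.75 to 1.16 TPM in all libraries, while its second transcript, of 462 bases, was at 1.502 TPM in fed replicate 2 and at 0 to 0.47 TPM in the other 5.

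The sums of the clusters were compared between the diets next. The summed TPM of the alpha cluster was 159.1, 142.8 and 155.6 in the fed and 159.3, 160.1 and 165.0 in the fasted libraries (152.5 ± 8.57 against 161.5 ± 3.07, SD, n = 3 each). The gamma sum was 128.8, 122.7 and 123.1 in the fed and 129.8, 134.1 and 132.7 in the fasted libraries (124.9 ± 3.36 against 132.2 ± 2.22). The beta sum was 49.4, 48.2 and 50.2 against 50.7, 52.5 and 50.6 TPM (49.3 ± 1.01 against 51.3 ± 1.11). All 3 sums were higher in each fasted library than in each fed one, by ratios of the means of 1.06, 1.06 and 1.04, and the gaps were narrow. The alpha difference was smaller without fed replicate 2, the library with muscle RNA. Without it the log2 ratio of the alpha means was 0.04, against 0.08 with it. Scaling moved all 3 ratios as well. With mitochondrial genes removed before scaling, the log2 ratio was 0.05 for alpha, 0.02 for beta and 0.05 for gamma, and with median-of-ratios scaling 0.06, 0.03 and 0.06, against 0.08, 0.06 and 0.08.

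The sums of the alternate genes did not overlap between the diets, whereas those of the C-types did. Summed TPM of the alternate alpha genes was 63.6, 54.8 and 61.2 in the fed and 65.6, 64.7 and 66.9 in fasted libraries, while that of Pcdhac1 and Pcdhac2 was 88.0 to 95.4 against 93.8 to 98.1. The gamma A sum was 45.7 to 49.1 TPM in the fed and 50.1 to 53.0 TPM in the fasted libraries, and the gamma B sum 16.01 to 16.6 against 16.7 to 17.5 TPM. The gamma C-type sum was 57.9 to 63.6 against 62.1 to 63.9 TPM. These are descriptions of sums over members, with no test. They were not set relative to the neuron markers, which were higher on average in fasted libraries.

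The neuron markers were also higher on average in fasted libraries, as given above. Per 1000 TPM of the 10 neuron markers, the alpha sum was 7.84, 7.80 and 7.87 in the fed and 7.55, 8.01 and 7.79 in fasted libraries. The gamma sum per 1000 TPM of these markers was 6.35, 6.71 and 6.23 in the fed and 6.15, 6.71 and 6.27 in fasted libraries, and the beta sum 2.44, 2.64 and 2.54 against 2.40, 2.63 and 2.39. On this scale the diets overlapped in all 3 clusters.

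**Figure D2:**
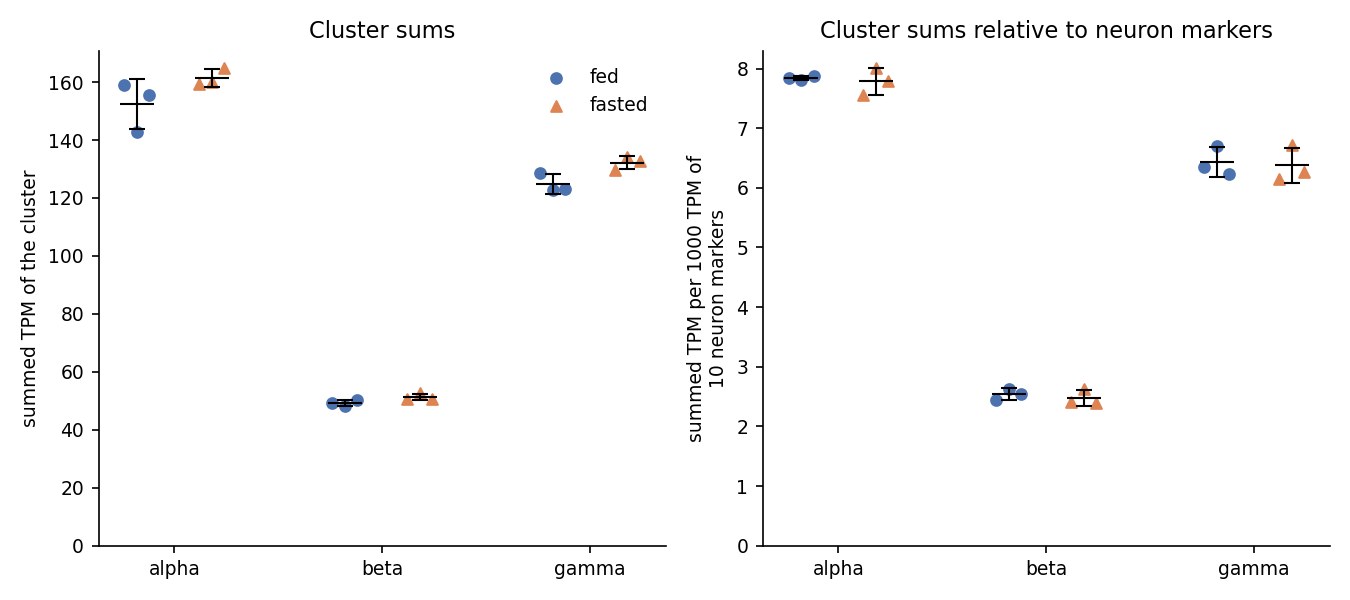
Left, summed TPM of the alpha, beta and gamma cluster in each library; right, the same sums per 1000 TPM of 10 neuron markers. Circles are fed and triangles fasted libraries, and the bars are the mean and SD of 3 libraries; the fasted sums lie above the fed ones on the left and overlap with them on the right.

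No member passed the test. Fasted and fed libraries were compared gene by gene with limma on log2(TPM + 1), with adjustment by Benjamini and Hochberg over 15097 tested genes, and 0 of the 52 tested members had an adjusted p under 0.05, against 0.00662% of all tested genes (1 gene). At an unadjusted limma p under 0.05, 3 members were higher in fasted libraries and 0 lower, against 6.72% and 3.22% of all tested genes in these directions. In 5 members (Pcdhac1, Pcdha11, Pcdhb22, Pcdhgb5 and Pcdhgc4) each fasted library lay above each fed one, and in 0 members below, against 12.7% and 5.07% of all tested genes. The members' shares were below the background in each case. The 95% interval of the log2 difference lay within ±0.5 for 50 of the 52 members, beside 12955 of the 15097 tested genes. The exceptions were Pcdhb8 and Pcdhga9, which were identified after their values were seen. The log2(TPM + 1) scale understates changes of low genes, so for members at a few TPM this limit allows larger changes in TPM.

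Most members were slightly higher in fasted libraries, as were most genes. Of the 52 tested members 41 were higher and 11 lower (78.8% higher), against 62.5% higher over all tested genes. The median log2 fold change was 0.09 for alpha (10 of 12 higher), 0.01 for beta (14 of 20) and 0.09 for gamma (17 of 20), against 0.03 over all tested genes. These counts moved with some of the scalings. With quantile normalization 41 of 52 members (78.8%, against 54.8% of all genes) and 15 of 20 beta genes were higher. With median-of-ratios scaling 35 of 52 members were higher (67.3%, against 52.9% of all genes), and the beta cluster was evenly divided, with 10 of 20 higher and a median of -0.00091. With mitochondrial genes removed before scaling, 35 of 53 were higher (66.04%, against 50.3% of all genes) and the beta median was -0.00078. Without fed replicate 2 the alpha median was 0.01, with 6 of 12 genes higher. The members share reads and neighbours, so their counts are not independent observations.

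**Figure D3:**
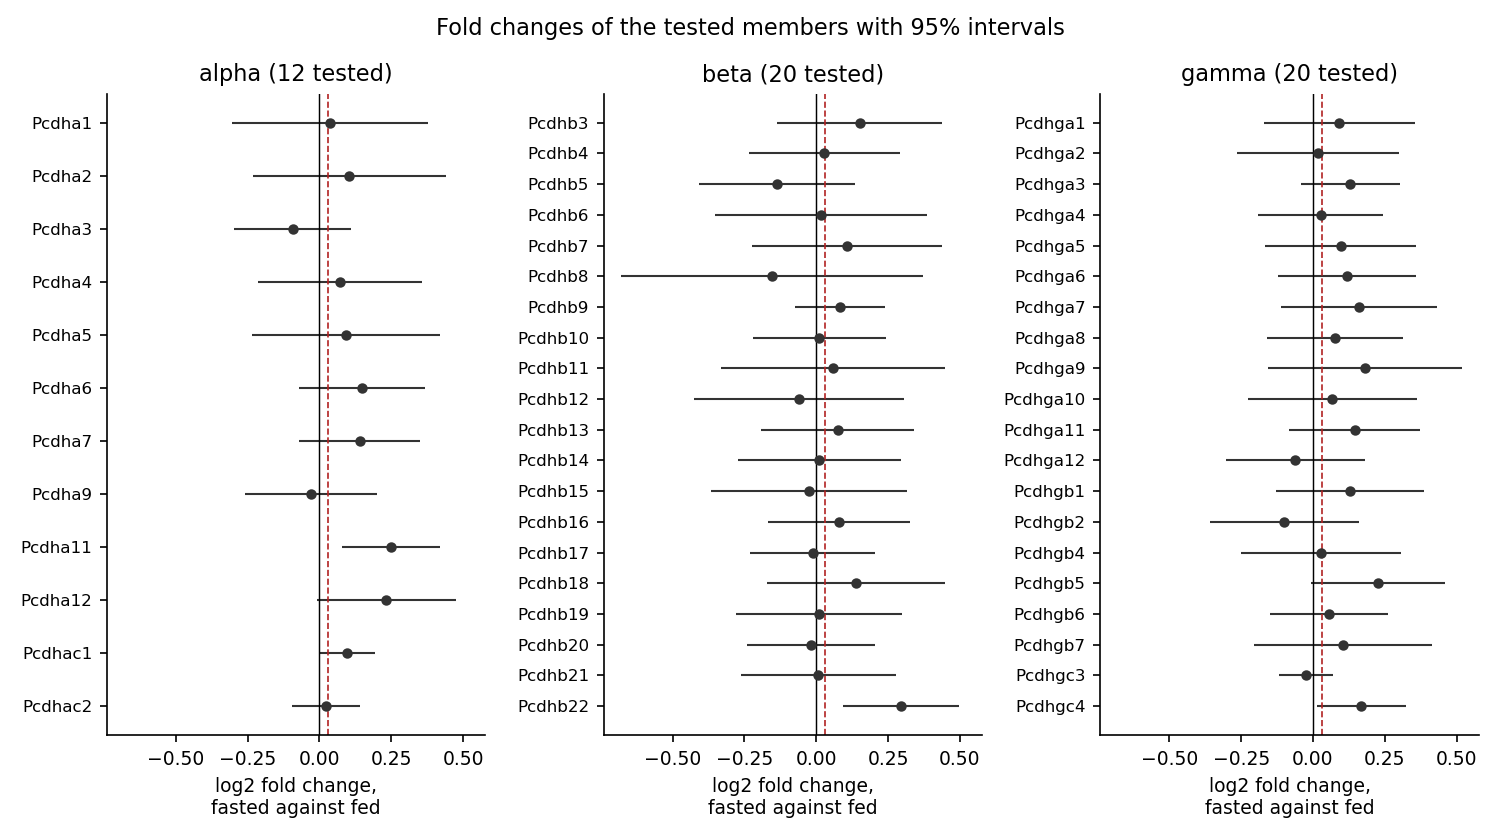
log2 fold change of fasted against fed libraries on the log2(TPM + 1) scale for the 52 tested members, with 95% intervals from limma, in 1 panel per cluster. The solid line marks 0 and the dashed line the median over all tested genes (0.03); 3 intervals, those of Pcdha11, Pcdhb22 and Pcdhgc4, do not reach 0, and none of these members passed after adjustment.

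For Pcdhac2, Pcdhgc3 and Pcdhac1, differences were small and their intervals narrow. These intervals measure the spread among libraries, not the uncertainty in assigning reads from shared exons. Pcdhac2 had a log2 fold change of 0.02 with a standard error of 0.05 (95% interval -0.09 to 0.14), and its direction changed in 4 of 16 alternative settings. Pcdhgc3 was at 36.5 ± 0.87 TPM in the fed and 35.8 ± 0.29 TPM in the fasted libraries (SD, n = 3 each), a log2 fold change of -0.02 (95% interval -0.12 to 0.07). Pcdhac1 lay at 28.8 ± 0.51 against 30.8 ± 0.53 TPM, with a log2 fold change of 0.10 and limma adjusted p = 0.50. Both of the most abundant members thus overlapped between the diets. Pcdhgc5 was too low to test.

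Pcdhgc4 was the C-type with the largest estimate, 23.9 ± 2.06 TPM in the fed and 26.9 ± 0.63 TPM in the fasted libraries (log2 fold change 0.17, 95% interval 0.01 to 0.32, limma adjusted p = 0.50). Most of its TPM came from a transcript that is hard to tell from other gamma transcripts. This transcript, of 2272 bases, has a first exon of 153 bases, and 93.3% of its bases lie in exons shared with other members. It was at 21.9, 21.1 and 17.9 TPM in the fed and 22.4, 24.0 and 22.8 TPM in the fasted libraries. The full-length transcript of 5024 bases, whose first exon has 2905 bases, was at 3.96, 2.73 and 3.68 TPM in the fed and 3.81, 3.27 and 3.66 TPM in the fasted libraries. The fasted libraries were thus higher for the short transcript, and overlapped with the fed ones for the full-length one. Counting full-length transcripts alone, the log2 fold change of Pcdhgc4 was 0.05, and its mean of 3.52 TPM was within the range of the gamma A genes. The same restriction brought overlap to the alpha sum (140.9 to 158.0 against 157.3 to 161.4 TPM) and the gamma sum (99.6 to 105.4 against 105.4 to 108.3 TPM).

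**Figure D4:**
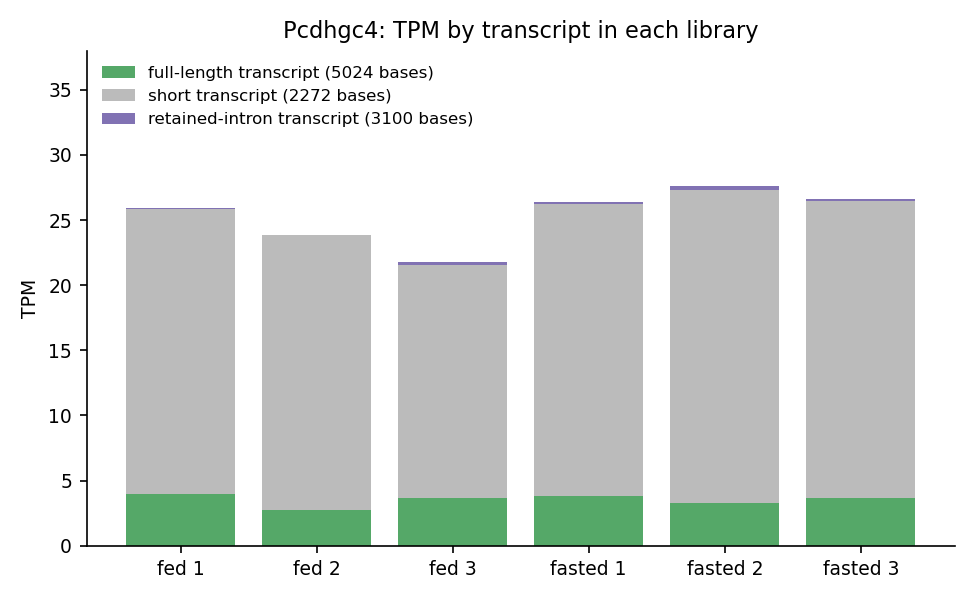
TPM of Pcdhgc4 in each of the 6 libraries, stacked by transcript; the green part is the full-length transcript, the grey part the short transcript made mostly of exons shared with other gamma genes, and the purple part a retained-intron transcript. The grey part holds 17.9 to 24.0 TPM of the 21.8 to 27.6 TPM in each library.

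Sharing of exons bears on all alpha and gamma members. In the most abundant transcript of each gene, the median share of bases in exons of another member was 53.5% for alternate alpha, 44.9% for gamma A and 45.4% for gamma B genes, and 0% for beta genes. Reads from the shared exons cannot be assigned to 1 member with certainty, so a level of an alpha or gamma gene is partly an estimate by the authors' quantification. Beta genes also resemble each other: a median of 11.8% of the 31-base words of a beta transcript occurred in another member.

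By symbol, Pcdha11 and Pcdha12 were the highest of the alternate alpha genes. Pcdha11, whose rank rests on the joining of identifiers, was at 10.6, 9.13 and 9.16 TPM in the fed and 11.8, 11.7 and 11.3 TPM in the fasted libraries, with no overlap. It had a log2 fold change of 0.25 and a standard error of 0.07 (95% interval 0.08 to 0.42, limma adjusted p = 0.45), and it ran from 0.18 to 0.31 over 16 alternative settings, with adjusted p from 0.40 to 0.73. With full-length transcripts alone its groups overlapped. Of the identifiers under this symbol, both with a lower mean than Pcdha4 (7.13 TPM), the one that starts at 37005203, where RefSeq (GRCm38.p6) places Pcdha10, was at 4.22, 3.19 and 4.49 TPM in the fed and 4.86, 4.43 and 4.31 TPM in the fasted libraries. The one that starts at 37010712 was at 6.36, 5.93 and 4.67 against 6.91, 7.28 and 7.003 TPM. Only the latter was without overlap between the diets. Pcdha10 was the only one of 58 RefSeq symbols of this form without a row of its own.

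Pcdha12 was at 10.3, 8.81 and 8.80 TPM in the fed and 9.60, 11.7 and 12.2 TPM in the fasted libraries, so that fasted replicate 1 lay within the fed range (log2 fold change 0.23, limma adjusted p = 0.51). Pcdha4 (6.92 ± 0.94 against 7.33 ± 1.08 TPM) and Pcdha9 (6.51 ± 0.75 against 6.35 ± 0.47 TPM) overlapped as well, and each changed direction in 3 of 16 alternative settings. The remaining alternate alpha genes at 1 TPM or more had log2 fold changes from -0.09 (Pcdha3) to 0.15 (Pcdha6).

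For 5 alpha gene identifiers the table separates transcripts with the whole last exon from transcripts in which part of it is spliced out. For the second Pcdha11 identifier the spliced form held 61.3, 64.2 and 72.03% of the pair in the fed and 56.2, 58.6 and 44.1% in fasted libraries, without overlap. For Pcdha2 it held 73.2, 50.1 and 60.1% against 56.2, 52.2 and 45.7%, and for Pcdha6 86.1, 55.1 and 82.5% against 59.6, 70.6 and 64.7%. The diets overlapped in Pcdha2 and Pcdha6. In Pcdha4 the spliced form was low and ran the other way on average, at 0.11, 0.57 and 0 TPM in the fed and 0.96, 0.41 and 1.52 TPM in the fasted libraries, with overlap. In Pcdha1 the form with the whole last exon had a value of 0 in all 3 fed libraries and of 0.10 to 0.33 TPM in the fasted ones. Apart from Pcdha4, these forms differ mainly in the shared 3′ part of the cluster, where reads cannot be assigned to 1 gene with certainty. In Pcdha4 they also differ in the gene's own first exon, of 2503 bases in the whole form and 1693 bases in the spliced one.

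In the beta cluster, Pcdhb22 had the largest estimate of all tested members. This gene, the last of the cluster (chr18:37517871-37524479), was at 2.84, 2.91 and 3.07 TPM in the fed and 3.77, 3.82 and 3.91 TPM in the fasted libraries. The narrow spread within each diet belongs to the sum of its transcripts. The transcript of 6609 bases was at 2.84, 2.91 and 2.60 against 3.36, 3.14 and 3.91 TPM, also without overlap. The transcript of 2266 bases was at 0, 0 and 0.48 against 0.42, 0.68 and 0 TPM. In the longer transcript 6.88% of the bases lie in exons of another member. Pcdhb22 had a log2 fold change of 0.30 and a standard error of 0.09 (95% interval 0.09 to 0.50, limma adjusted p = 0.45), and its limma adjusted p ranged from 0.377 to 0.73 over 15 alternative settings. Pcdhb22 made up 5.74, 6.04 and 6.12% of the beta sum in the fed and 7.45, 7.28 and 7.74% in fasted libraries. It was the only 1 of the 22 beta shares without overlap, and no background was computed for shares. The other named beta genes had log2 fold changes of 0.08 (Pcdhb9), -0.01 (Pcdhb17) and -0.02 (Pcdhb20). The lowest estimate was that of Pcdhb8 (-0.15, 95% interval -0.68 to 0.37).

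Of the gamma A genes, 11 of 12 were higher in fasted libraries, beside 62.5% of all tested genes. An unadjusted limma p under 0.05 was found for 0 of them, beside 6.72% (higher) and 3.22% (lower) of all tested genes. Pcdhga3 was at 7.22, 6.85 and 7.89 TPM in the fed and 7.80, 8.26 and 8.21 TPM in the fasted libraries (log2 fold change 0.13, limma adjusted p = 0.54). Pcdhga11 (6.19 ± 0.51 against 6.97 ± 0.78 TPM), Pcdhga6 (4.85 ± 0.65 against 5.33 ± 0.24 TPM) and Pcdhga7 (4.49 ± 0.74 against 5.10 ± 0.25 TPM) were higher on average too, and their groups overlapped. Of the 6 gamma B genes tested, 5 were higher, beside the same 62.5% of all tested genes. Pcdhgb5 was the clearest, at 2.04, 1.95 and 1.94 TPM in the fed and 2.48, 2.42 and 2.55 TPM in the fasted libraries, with a log2 fold change of 0.23 and limma adjusted p = 0.51. Its groups did not overlap, and its share of the gamma sum was 1.58 to 1.59% in the fed and 1.81 to 1.92% in fasted libraries. Pcdhgb6 (4.24 ± 0.36 against 4.44 ± 0.06 TPM), Pcdhgb2 (4.04 ± 0.25 against 3.72 ± 0.54 TPM) and Pcdhgb1 (2.31 ± 0.17 against 2.62 ± 0.27 TPM) overlapped between the diets.

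Shares within a cluster do not change when a whole library is scaled by 1 factor. Quantile normalization is not such a scaling, and shares were not computed under it. Pcdhac2 made up 41.9, 41.8 and 41.9% of the alpha sum in the fed and 39.6, 40.6 and 40.4% in fasted libraries, and Pcdhgc3 29.0, 29.7 and 28.9% of the gamma sum in the fed and 27.4, 26.8 and 27.1% in fasted libraries. Both shares were lower in each fasted library than in each fed one, also with full-length transcripts alone, while the TPM of both genes overlapped. The other members whose share did not overlap were Pcdha11 and Pcdhgb5 (higher) and Pcdha3 and Pcdhga12 (lower), besides Pcdhb22. With full-length transcripts alone Pcdhgb5 was still without overlap, and Pcdha11, Pcdha3 and Pcdhga12 overlapped. That restriction leaves the beta genes unchanged, so it cannot show how stable the share of Pcdhb22 is. Pcdhac1 and Pcdhac2 together made up 60.8 ± 0.82% of the alpha sum in the fed and 59.3 ± 0.38% in fasted libraries, without overlap, but overlapped with full-length transcripts alone. The gamma C-types together made up 48.5 ± 1.33% against 47.7 ± 0.21% of the gamma sum and overlapped. With full-length transcripts alone the gamma C-type share was 36.9 to 38.5% in the fed and 35.7 to 36.3% in fasted libraries, without overlap. Of the 13 alpha shares, 1 was higher and 2 were lower without overlap, counting all transcripts. Of the 22 beta shares these counts were 1 and 0, and of the 22 gamma shares 1 and 2. No such count was made for other genes, so these numbers have no background of their own. For TPM, 12.7% of all tested genes were higher and 5.07% lower without overlap. Shares within a cluster depend on each other, and no test was run on them.

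**Figure D5:**
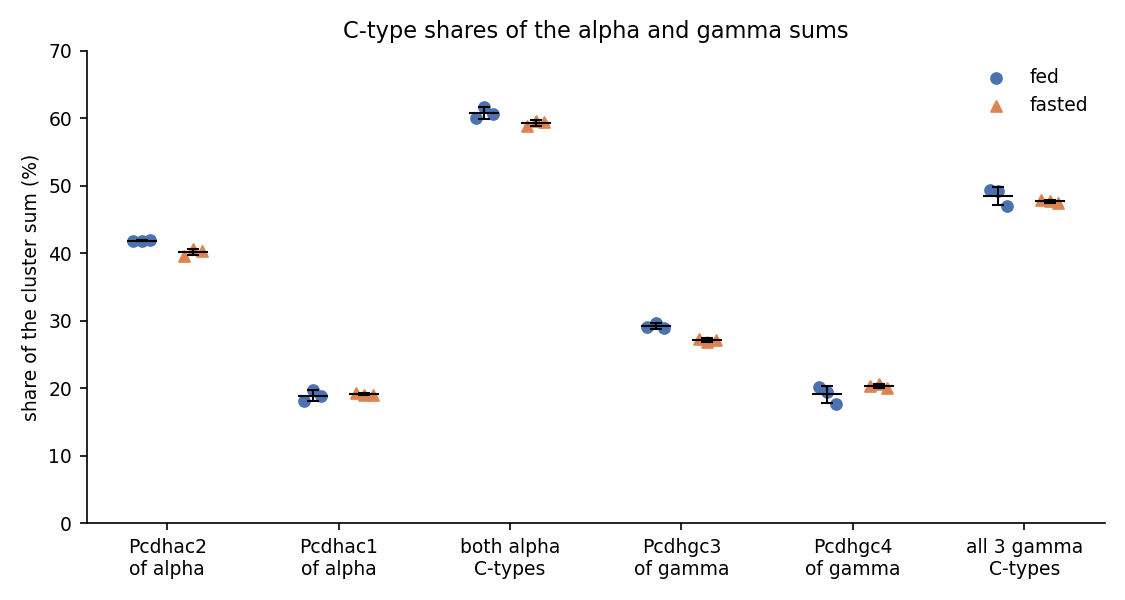
Share of the alpha or gamma sum, in percent, held by the C-type isoforms in each library; circles are fed and triangles fasted libraries, and the bars are the mean and SD of 3 libraries. The shares of Pcdhac2 (41.8 to 41.9% against 39.6 to 40.6%) and Pcdhgc3 (28.9 to 29.7% against 26.8 to 27.4%) do not overlap between the diets.

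Genes that act on or with the clustered protocadherins were examined as 3 lists. The first holds 20 regulators of the clusters, among them Ctcf, which binds the promoters and enhancers, the cohesin subunits that hold the resulting loops, and enzymes of DNA and histone methylation. Of the 19 tested (Dnmt3b was under 1 TPM), 11 were higher and 8 lower after fasting (median log2 fold change 0.02), and 0 passed. The smallest p belonged to Ctcf (24.8 ± 1.09 against 27.0 ± 1.17 TPM, log2 fold change 0.12, limma adjusted p = 0.52), and the cohesin subunits Rad21 (64.5 ± 2.46 against 68.9 ± 2.02 TPM) and Smc1a came next. At an unadjusted limma p under 0.05 there were 0 regulators, beside 6.72% (higher) and 3.22% (lower) of all tested genes.

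The second list holds 20 genes whose proteins bind or process protocadherins, such as the kinases Ptk2 and Ptk2b, which protocadherin tails inhibit, subunits of the WAVE complex, which drives actin assembly, and the protease Adam10, which sheds the extracellular part. Of these 20, 15 were higher and 5 lower, with a median of 0.06. By limma 0 passed after adjustment, and 2 were higher and 0 lower at an unadjusted p under 0.05, beside 6.72% and 3.22% of all tested genes. Ctnnb1, encoding beta-catenin, was at 425, 403 and 439 TPM in the fed and 469, 463 and 453 TPM in the fasted libraries (log2 fold change 0.13, limma adjusted p = 0.48). Ptk2b was at 18.7, 15.9 and 18.9 against 20.3, 20.1 and 20.96 TPM, also without overlap (log2 fold change 0.19, limma adjusted p = 0.49). The third was Pdcd10, at 77.2 to 83.8 against 83.2 to 87.6 TPM.

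The third list holds 18 non-clustered protocadherins and related giant cadherins, which have genes of their own outside the clusters and mostly mediate adhesion between like cells. Of the 13 tested, 11 were higher and 2 lower, with a median of 0.08, and 0 passed. At an unadjusted limma p under 0.05, 2 were higher (Pcdh8 and Pcdh9) and 0 lower, beside 6.72% and 3.22% of all tested genes. Pcdh8 was at 3.88, 2.98 and 3.71 TPM in the fed and 4.30, 4.55 and 4.62 TPM in the fasted libraries (log2 fold change 0.28, limma adjusted p = 0.49). Pcdh9 was at 34.1 to 37.3 against 39.0, 37.9 and 41.2 TPM (log2 fold change 0.13, limma adjusted p = 0.50), and Pcdh11x at 1.49 to 1.83 against 1.90 to 2.39 TPM. In these 3 genes each fasted library lay above each fed one, and in 1 gene, Dchs1 (1.10 to 1.14 against 0.93 to 1.03 TPM), each lay below, beside 12.7% and 5.07% of all tested genes. Dchs1 was picked out after its values were seen. The medians of the 3 lists (0.02, 0.06 and 0.08) stand beside 0.03 over all tested genes and 0.08 over the 10 neuron markers. Their counts of higher genes stand beside 62.5% of all tested genes that were higher in fasted libraries.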

How the data were processed

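The authors deposited TPM per transcript for 6 libraries (3 fed, 3 fasted). The submitters' processing notes name Salmon 1.6.0, DESeq2 1.34.0, Trim Galore 0.6.6 and FastQC 0.11.9 and the builds mm10 and GRCm38, and per the labels' protocols the kit was stranded and selects mRNA. Their annotation release was not given in the sources used here. All 88 deposited transcripts of the members were found in GENCODE M21. TPM keep no depth, so no count test was run.

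TPM were summed per gene symbol. Genes whose mean TPM was 1 or more were tested on log2(TPM + 1), a scale that understates changes of low genes, with limma 3.58.1 in R 4.3.3 (no covariate, empirical Bayes with intensity trend, two-sided, Benjamini-Hochberg adjustment over all tested genes, threshold 0.05). The script also ran the fit on simulated data, with means and spreads taken from these libraries. Members and lists were chosen with earlier results of these data known. Named were the C-types, the 4 highest members of the alternate alpha, beta, gamma A and gamma B families, members with an unadjusted p under 0.05, and the 3 genes with the smallest p of each list; further members are named where a count of 5 or fewer or an extreme value called for it. Exon sharing was computed from GENCODE M21. Full-length transcripts (alpha and gamma, first exon of at least 2000 bases and at least 4 exons) were an alternative chosen after seeing the data. The others were pseudocounts of 0.1 and 0.5, no filter on low values, a minimum mean of 5 TPM, median-of-ratios and quantile scaling, removal of mitochondrial genes, robust empirical Bayes, a replicate block, and leaving out each library. Figures were drawn with matplotlib 3.10.9.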

Additional observations from a re-analysis of the deposited data

How the results depend on the processing

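In every alternative run, 0 members passed the threshold, the replicate block included, under which the medians were 0.09 (alpha), 0.01 (beta) and 0.09 (gamma). Replicate numbers were not taken to pair the libraries, because no label ties a number to a litter, batch or day. Same-numbered libraries deviated together weakly (correlations of 0.09, 0.11 and 0.07), but each correlated best with its own number. With the replicate block 1724 of 15097 tested genes had an unadjusted limma p under 0.05, against 1501 without it. A pairing of the libraries therefore remains possible. Leaving out each library in turn, the alpha median ran from 0.011 (without fed replicate 2) to 0.14, the beta median from 0.015 to 0.051 and the gamma median from 0.08 to 0.10. With a minimum mean of 5 TPM the beta median was 0.084, from 1 gene, and the gamma median 0.13, from 5 genes. Quantile scaling gave a beta median of 0.047. Without mitochondrial genes the log2 ratio of the sums was 0.024 for beta and 0.0496 for gamma. The cause of these shifts was not tested, apart from the fewer genes under the stricter filter. Of the named members, Pcdha4, Pcdha9, Pcdhac2, Pcdhb17, Pcdhb20 and Pcdhgb6 changed sign in some settings, and all had estimates near 0. With 3 libraries a group and unknown depth, small changes of single members cannot be resolved.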
